A study of Mus musculus with 5 samples.

Results

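The MHC class II pathway is described here through 10 genes, all of them found by symbol among the 41388 genes of a count table of sorted mouse brain microglia. They are the surface chains H2-Aa, H2-Ab1 and H2-Eb1, the invariant chain Cd74, the peptide editor chains H2-DMa, H2-DMb1 and H2-DMb2, the chains of its inhibitor H2-Oa and H2-Ob, and the transactivator Ciita. RNA was sequenced from 3 A20 deletion libraries, whose genotype label is eYFP-A20Dmg, and from 2 control libraries, labelled eYFP-A20fl/wt Cx3cr1-CreERT2/+. A20 is the product of Tnfaip3, it limits NF-kB activation by editing ubiquitin chains, and the study calls the deletion microglia fully deficient and the controls partially deficient for it. All mice were C57Bl/6, aged 4 weeks, and had been given 2 mg tamoxifen on postnatal days 14 and 16, and eYFP, a yellow fluorescent protein, was the marker used to sort the cells. The controls thus carry 1 floxed allele and a tamoxifen-activated Cre recombinase under Cx3cr1, a gene that other mononuclear phagocytes also use, while the label of the deletion group does not spell out its alleles. Whether each library came from its own animal is not said, and the p-values therefore reflect only library-to-library spread, part of which may be technical.

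Class II molecules present peptides from endocytosed protein to CD4+ T cells. An alpha and a beta chain pair in the endoplasmic reticulum around the invariant chain, which fills the groove and carries the complex to endosomes. There proteases trim the invariant chain, DM exchanges the remaining fragment for a peptide, and DO restrains DM. Resting microglia are known for low surface class II, which interferon-gamma induces through JAK kinases, IRF1 and the coactivator CIITA. CIITA does not bind DNA itself but docks on RFX, CREB and NF-Y proteins that sit on the X and Y boxes of class II promoters.

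The promoters of these genes are shown first, because the X and Y boxes are where CIITA is known to act. Of the 10 genes 7 were searched in the RefSeq promoter table (GRCm38.p6, 250 bases before to 50 after each start). H2-Ab1 and Ciita had no entry there, and the Cd74 promoter was left out of the search. All 7 had a Y box, ATTGG, on either strand, as did 37.4% of the 32851 promoters in the table. The X box core GCAACNG followed on the same strand by a Y box, 28 to 38 bases apart from start to start, was in H2-Eb1 alone of the 7, and in 0.128% of all promoters. After the sequences had been read, 2 shorter forms were added: GCAAC as a shortened X box, found in 4 of the 7 and in 0.487% of all promoters, and ATGATGC starting 18 to 28 bases before the Y box, found in 4 of the 7 and in 0.0426%. Of the 7, 6 held at least 1 of these pairs, against 0.524% of all promoters, and only the H2-DMa windows held neither. The shorter forms were chosen after these promoters were read, so their counts among the 7 cannot be weighed against the shares over all promoters. In H2-Eb1 and H2-Ob the forms follow each other without overlap. Capitals mark these X box forms and the Y box where they form a pair, each stretch is 69 bases on the strand of its gene, and the 6 lie on GRCm38 at chr17:34287855-34287923 (H2-Aa, minus strand) and, on the plus strand, chr17:34305756-34305824 (H2-Eb1), chr17:34092284-34092352 (H2-Oa), chr17:34238796-34238864 (H2-Ob), chr17:34153078-34153146 (H2-DMb1) and chr17:34145107-34145175 (H2-DMb2).
H2-Aa: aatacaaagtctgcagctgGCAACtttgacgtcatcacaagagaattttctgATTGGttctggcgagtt
H2-Eb1: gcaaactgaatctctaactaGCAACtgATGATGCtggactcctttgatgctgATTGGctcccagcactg
H2-Oa: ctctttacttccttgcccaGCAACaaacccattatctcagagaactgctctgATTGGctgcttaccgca
H2-Ob: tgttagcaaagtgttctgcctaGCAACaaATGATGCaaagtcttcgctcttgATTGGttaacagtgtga
H2-DMb1: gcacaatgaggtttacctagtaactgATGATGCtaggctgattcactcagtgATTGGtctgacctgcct
H2-DMb2: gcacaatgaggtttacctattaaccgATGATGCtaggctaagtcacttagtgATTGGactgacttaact

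The Y box began 48 bases before the RefSeq start of H2-Aa, 59 before that of H2-Eb1, 43 before that of H2-Oa, 57 before that of H2-Ob, 61 before that of H2-DMb1 and 90 before that of H2-DMb2. A match of letters is not a measured binding site.

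The A20 deletion libraries held between 9726334 and 12883827 counts and the control libraries 13946211 and 15275199. They were not alike in structure: mitochondrially encoded genes took 0.847%, 4.63% and 3.56% of counts in A20 deletion replicates 1 to 3, and 1.19% and 0.852% in the controls. Xist, which is transcribed in females, had 616 counts in A20 deletion replicate 1 and 780 in control replicate 1, and 0 in the other libraries. Genes of chromosome Y had 7, 2257 and 1304 counts in A20 deletion replicates 1 to 3, and 14 and 2175 in the controls. Tnfaip3 had CPM values (counts-per-million on scaled totals) of 294, 276 and 347 with A20 deleted and of 454 and 94.7 in the controls, a log2 fold change of 0.16 (SE 0.55, edgeR adjusted p = 0.881). These counts do not check the deletion, since which exons were removed is not stated in the labels. Across 12240 genes tested with edgeR's quasi-likelihood test, 255 (2.08%) were higher in the A20 deletion libraries at an adjusted p under 0.05 and 62 (0.507%) lower.

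Of the 10 class II genes 9 passed the filter on low counts, and 2 of these rose in the A20 deletion libraries, H2-Ab1 and Cd74, while 0 fell by edgeR, DESeq2 or limma-voom. At an unadjusted p under 0.05 edgeR had 5 higher and 0 lower, against 12.8% higher and 8.26% lower over all genes tested. The surface chains H2-Aa and H2-Eb1 had differences of the same size that did not pass. The DM chains and H2-Ob had small ones. In 7 of the 9 every A20 deletion library lay above both controls, which was so for 21.7% of all genes tested. The median log2 fold change of the 9 was 0.93, against 0.05 over all genes tested.

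**Figure D1:**
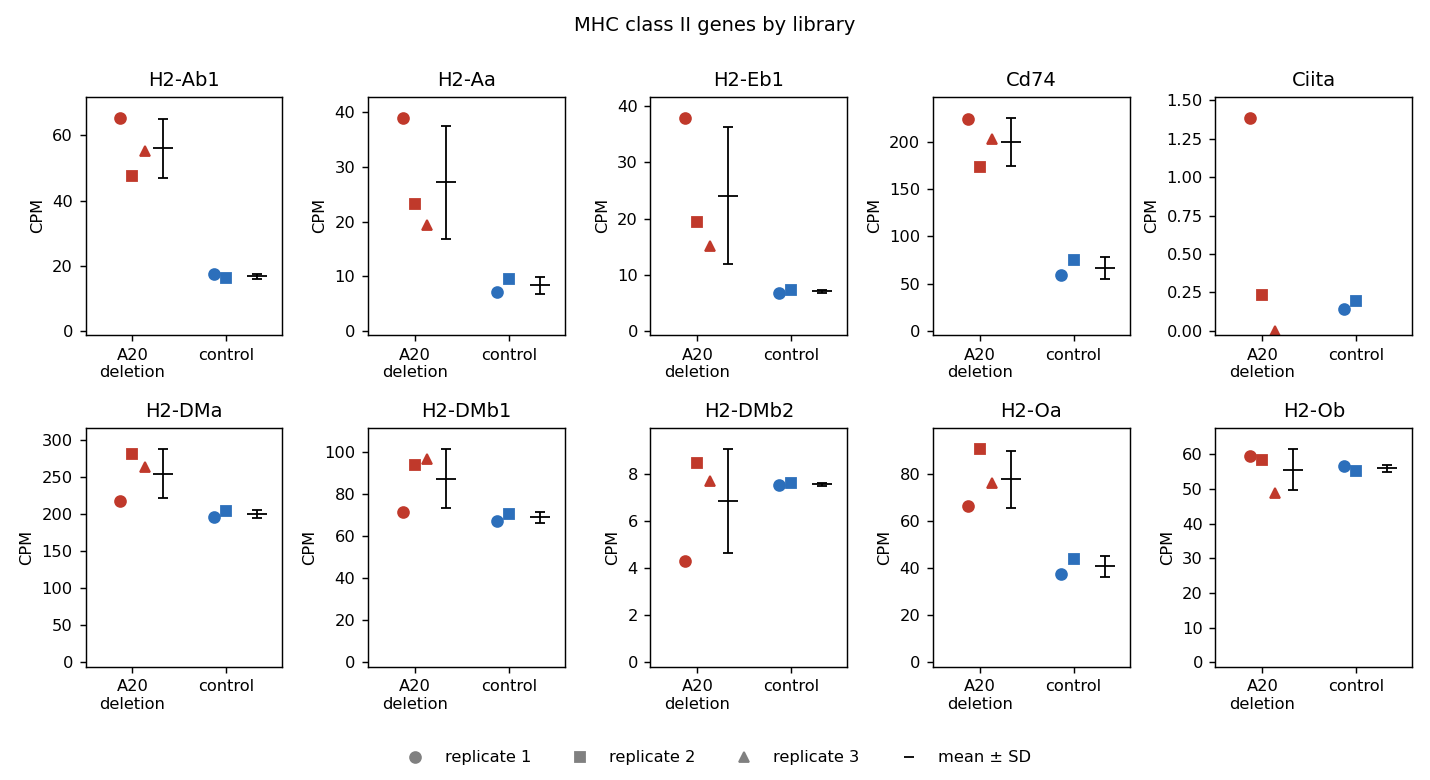
Level of each of the 10 class II genes in CPM (counts-per-million on scaled totals) by library, A20 deletion in red and control in blue, with marker shape giving the replicate and black bars the mean ± SD (n = 3 and 2; not drawn for Ciita, which has a library at 0). H2-Ab1, H2-Aa, H2-Eb1 and Cd74 sit well above both controls in all 3 A20 deletion libraries, while H2-Ob and H2-DMb2 overlap.

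H2-Ab1 (ENSMUSG00000073421, GRCm38 chromosome 17, 34257689 to 34269419, plus strand) encodes the beta chain of I-A, the class II molecule that C57BL/6 mice carry on their cells. The A20 deletion libraries held 65.4, 47.4 and 55.3 CPM of it and the controls 17.3 and 16.3 CPM. The lowest A20 deletion library was far above both controls, which lay close together. The means were 56.0 ± 8.996 CPM and 16.8 ± 0.752 CPM (SD, n = 3 and 2), a rise of 3.33-fold (log2 1.74, SE 0.20, edgeR adjusted p = 0.0104). After removal of each library's trend with gene length the log2 fold change was 1.57 (edgeR adjusted p = 0.0234).

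H2-Aa (ENSMUSG00000036594, chromosome 17, 34282744 to 34287823, minus strand) encodes the alpha chain that pairs with it. Its level was 39.0, 23.2 and 19.3 CPM with A20 deleted and 7.18 and 9.42 CPM in the controls, without overlap and with A20 deletion replicate 1 the highest. The log2 fold change was 1.71 (SE 0.35, adjusted p = 0.056 by edgeR), which missed the threshold.

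H2-Eb1 (ENSMUSG00000060586, chromosome 17, 34305867 to 34316674, plus strand), the beta chain of I-E, followed the same order, with 37.9, 19.3 and 15.05 CPM in the A20 deletion libraries, against 6.82 and 7.24 CPM in the controls. Its log2 fold change of 1.78 (SE 0.41, edgeR adjusted p = 0.0815) also missed the threshold. Its SD in the A20 deletion group was 12.2 CPM around a mean of 24.1, against 0.296 around 7.03 CPM in the controls. The gene of its partner, the E alpha chain, is disrupted in C57BL/6 mice, and H2-Ea had 0 counts in all 5 libraries, as did the related beta chain gene H2-Eb2.

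Cd74 (ENSMUSG00000024610, chromosome 18, 60803848 to 60812652, plus strand), the invariant chain, was the most abundant of the 10 per length in the A20 deletion libraries. It had 224, 173 and 203 CPM there, against 58.7 and 74.7 CPM in the controls. All 3 A20 deletion libraries were above the higher control by a wide margin. The means were 200 ± 25.6 and 66.7 ± 11.3 CPM (SD, n = 3 and 2), a rise of 3-fold (log2 1.58, SE 0.20, edgeR adjusted p = 0.0134). With the trend with gene length removed the log2 fold change was 1.26 (edgeR adjusted p = 0.0451).

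Neither call held with a single control library, a design in which edgeR called 16 genes higher and 2 lower of 12988, or 0 of 13003, in all. Without control replicate 1 the adjusted p was 0.13 for H2-Ab1 and 0.146 for Cd74, and without control replicate 2 it was 0.201 and 0.157, with log2 fold changes between 1.38 and 1.74. Without A20 deletion replicate 3 Cd74 gave an adjusted p of 0.0525, and over 17 alternatives it ranged from 1.43e-10 to 0.157 for Cd74 and from 1.85e-10 to 0.201 for H2-Ab1.

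The DM chains, which edit the peptide in the groove, were abundant in both groups. H2-DMa (ENSMUSG00000037649, chromosome 17, 34119541 to 34139101) had 218, 282 and 264 CPM in the A20 deletion libraries, against 197 and 205 CPM in the controls. The lowest A20 deletion library lay just above the higher control. H2-DMb1 (ENSMUSG00000079547, chromosome 17, 34153072 to 34160230) had 71.6, 94.0 and 96.9 CPM against 67.2 and 70.8 CPM, again with little distance between A20 deletion replicate 1 and the controls. Both had a log2 fold change of 0.34 (SE 0.17 and 0.19, edgeR adjusted p = 0.293 and 0.326).

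H2-DMb2 (ENSMUSG00000037548, chromosome 17, 34143307 to 34151555), a second beta chain gene beside H2-DMb1, was far lower, with 4.33, 8.48 and 7.73 CPM in the A20 deletion libraries, against 7.53 and 7.63 CPM in the controls. The groups overlapped, and A20 deletion replicate 1 was the lowest library (log2 fold change -0.15, SE 0.34, edgeR adjusted p = 0.814). Of the 50-base windows of its transcripts 21.2% also occur in H2-DMb1 transcripts, so the division of reads between these genes is uncertain. In H2-DMa, 360 exonic bases are shared with Brd2 on the opposite strand, and reads from these bases cannot be assigned without the strand setting of the counting.

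The DO chains differed from each other. H2-Oa (ENSMUSG00000024334, chromosome 17, 34092340 to 34095234), the alpha chain, had 66.5, 90.6 and 76.4 CPM in the A20 deletion libraries, against 37.7 and 44.1 CPM in the controls. The groups did not overlap, and the log2 fold change of 0.93 (SE 0.20, edgeR adjusted p = 0.0641) missed the threshold; it was 0.50 after removal of each library's trend with gene length. H2-Ob (ENSMUSG00000041538, chromosome 17, 34238903 to 34254414), the beta chain, had 59.5, 58.3 and 48.8 CPM against 56.7 and 55.2 CPM. Its log2 fold change was -0.01 (SE 0.17, adjusted p = 0.981 by edgeR) and 0.05 under upper quartile scaling, so no direction can be given. H2-Oa shares 321 exonic bases with BC051537 on the opposite strand.

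Ciita (ENSMUSG00000022504, chromosome 16, 10480059 to 10528418, plus strand), the coactivator on which class II transcription is known to depend, was barely counted. It had 16, 3 and 0 counts in the A20 deletion libraries and 2 and 3 counts in the controls. Of the 19 counts in the A20 deletion group 16 were in replicate 1, the library in which H2-Aa, H2-Ab1, H2-Eb1 and Cd74 were also highest. The gene did not pass the filter. Fitted without the filter it gave a log2 fold change of 1.62 (SE 1.4, edgeR adjusted p = 0.604), and a difference was not detectable at this depth. Of its exonic bases 329 are shared with Dexi on the opposite strand. A count of 3, the limit that a count of 0 allows, corresponded to between 0.196 and 0.308 CPM in these libraries. That range is on unscaled totals, unlike the other CPM, and covers counting error only.

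Set side by side per exonic length as TPM (transcripts-per-million), the A20 deletion and control libraries ordered the 10 genes differently at the top. In the A20 deletion libraries the order of means was Cd74 (342 TPM), H2-DMa (210), H2-Oa (157), H2-DMb1 (148), H2-Ab1 (62.8), H2-Eb1 (36.2), H2-Ob (29.5), H2-Aa (20.7), H2-DMb2 (11.03) and Ciita (0.171). The ranges of H2-Oa and H2-DMb1 overlapped there, as did those of H2-Ab1 and H2-Eb1, of H2-Eb1 and H2-Ob, and of H2-Ob and H2-Aa. In the controls the order was H2-DMa (197 TPM), H2-DMb1 (139), Cd74 (134), H2-Oa (98.1), H2-Ob (35.1), H2-Ab1 (22.1), H2-DMb2 (14.7), H2-Eb1 (12.2), H2-Aa (7.38) and Ciita (0.0592), and of the neighbours only H2-DMb1 and Cd74 overlapped.

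Summed by role, the surface chains H2-Aa, H2-Ab1 and H2-Eb1 held 170, 92.9 and 96.3 TPM in the A20 deletion libraries and 41.3 and 42.2 TPM in the controls. The DM chains held 333, 384 and 389 TPM against 344 and 356 TPM, with overlap. TPM, unlike CPM here, were not TMM-scaled, and in CPM H2-DMa and H2-DMb1 did not overlap between the groups. The DO chains held 179, 203 and 178 TPM against 127 and 140 TPM. In transcripts per length the surface chains thus stood at 0.51, 0.242 and 0.248 of the DM chains in the A20 deletion libraries, and at 0.12 and 0.119 in the controls. The ratio in A20 deletion replicate 1 lay apart from the others of its group. Cd74 per summed surface chain was 2.41, 2.99 and 3.51 in the A20 deletion libraries and 2.88 and 3.55 in the controls, overlapping between the groups. H2-Oa per H2-Ob was 4.27, 5.94 and 5.98 in the A20 deletion libraries and 2.54 and 3.06 in the controls, without overlap. H2-Oa and H2-Ob differ in exonic length, with 1407 and 5380 bases. After removal of each library's trend with gene length their log2 fold changes were 0.50 and 0.057, against 0.93 and -0.01 as reported. No test was made of these sums and ratios.

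**Figure D2:**
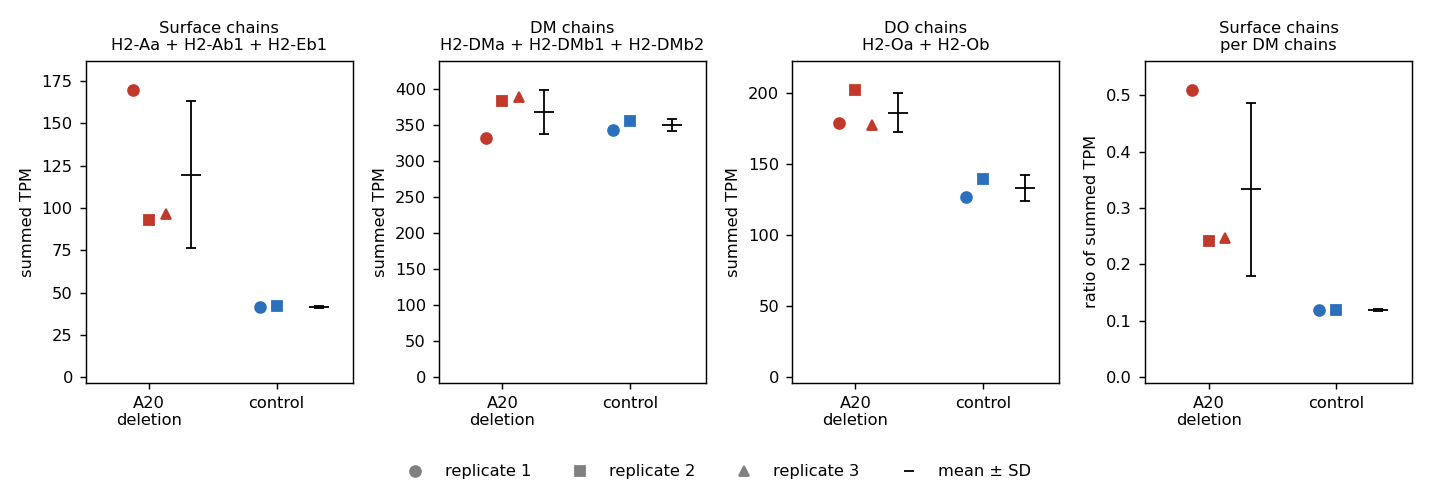
Summed TPM (transcripts-per-million) of the surface chains, the DM chains and the DO chains, and the ratio of surface to DM chains, by library; A20 deletion in red, control in blue, marker shape for the replicate, black bars for the mean ± SD (n = 3 and 2). The surface chains stand at 92.9 to 170 TPM in the A20 deletion libraries and at 41.3 and 42.2 TPM in the controls. The DM sums overlap in TPM, which is not TMM-scaled.

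The libraries divide the genes further. A20 deletion replicate 1 was the highest of its group for H2-Ab1, H2-Aa, H2-Eb1 and Cd74, and the lowest for H2-DMa, H2-DMb1, H2-DMb2 and H2-Oa. Within the libraries that counted Xist, A20 deletion replicate 1 minus control replicate 1 was 2.41 log2 CPM for H2-Aa, 1.90 for H2-Ab1, 2.45 for H2-Eb1 and 1.93 for Cd74. Within the libraries that did not, A20 deletion replicates 2 and 3 minus control replicate 2 gave 1.02 and 1.28 for H2-Aa, 1.53 and 1.75 for H2-Ab1, 1.04 and 1.395 for H2-Eb1, and 1.21 and 1.44 for Cd74. All 4 genes were therefore higher in the A20 deletion libraries on both sides of that division, with 1 control library on each. With A20 deletion replicates 2 and 3, the libraries of high mitochondrial share, both left out, 4 class II genes rose (H2-Ab1, H2-Aa, H2-Eb1 and Cd74), and with a term for that share the same 4 rose, where 2.64% and 2.77% of all genes tested were higher. The fit without replicates 2 and 3 has 1 deletion library, whose spread is taken from the controls. That library, replicate 1, was the highest of its group for these 4 genes. Its log2 fold changes were 2.24 for H2-Aa, 1.97 for H2-Ab1, 2.44 for H2-Eb1 and 1.76 for Cd74. Whether these rises hold apart from the mitochondrial share was not tested by that fit. Leaving out A20 deletion replicate 1 instead, 7 of the 9 rose, all but H2-DMb2 and H2-Ob, where 15.7% of all genes tested were higher. The groups of the fit without replicate 1 coincide with the mitochondrial share, and group and share cannot be told apart there.

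**Figure D3:**
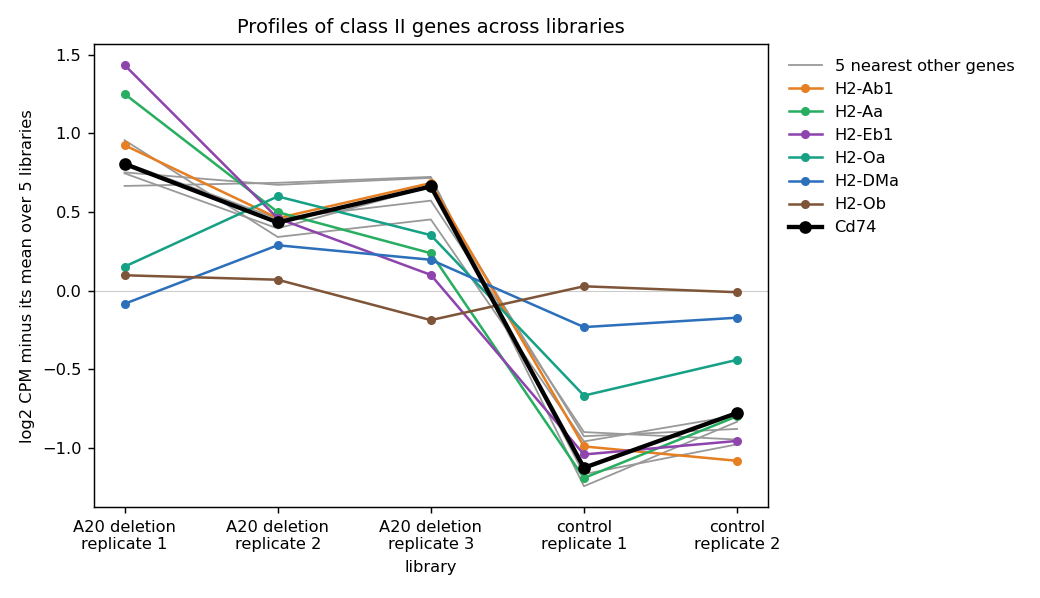
Profile of 7 class II genes and of the 5 other genes nearest to Cd74 across the 5 libraries, as log2 CPM minus the mean of the gene; lines only join the points of a gene. H2-Ab1 runs close to Cd74, H2-Aa and H2-Eb1 peak in A20 deletion replicate 1, and H2-DMa and H2-Ob stay near 0.

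Likeness to Cd74 was measured as the root mean square difference of centred log2 CPM over the 5 libraries, among 8359 other genes. The 5 nearest genes outside the pathway were Tap1, a subunit of the peptide transporter of the class I pathway (0.105), Tspo, an outer mitochondrial membrane protein (0.133), the paired immunoglobulin-like receptor Pirb (0.138), the lysozyme gene Lyz2 (0.144) and Slfn2 of the schlafen family (0.144). Tap1 had 345, 271 and 326 CPM in the A20 deletion libraries, against 108 and 112 CPM in the controls. Pirb and Lyz2 have near-identical relatives, so their counts are uncertain. Among the class II genes themselves H2-Ab1 was nearest, in place 9 (0.157), followed by H2-Aa in place 48, H2-Eb1 in place 151, H2-Oa in place 212, H2-DMa in place 1368, H2-DMb1 in place 1452 and H2-Ob in place 3530.

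The partner genes of the pathway reported here numbered 25, of which 22 were tested. In the A20 deletion libraries 2 of these rose, Ifi30 and Ctss, and 0 fell by edgeR, DESeq2 or limma-voom, with 5 higher and 2 lower at an unadjusted edgeR p under 0.05. Their median log2 fold change was 0.15. The shares over all genes tested were 2.08% and 0.507% for the adjusted calls and 12.8% and 8.26% at the unadjusted level, and both calls were peptide supply genes.

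**Figure D4:**
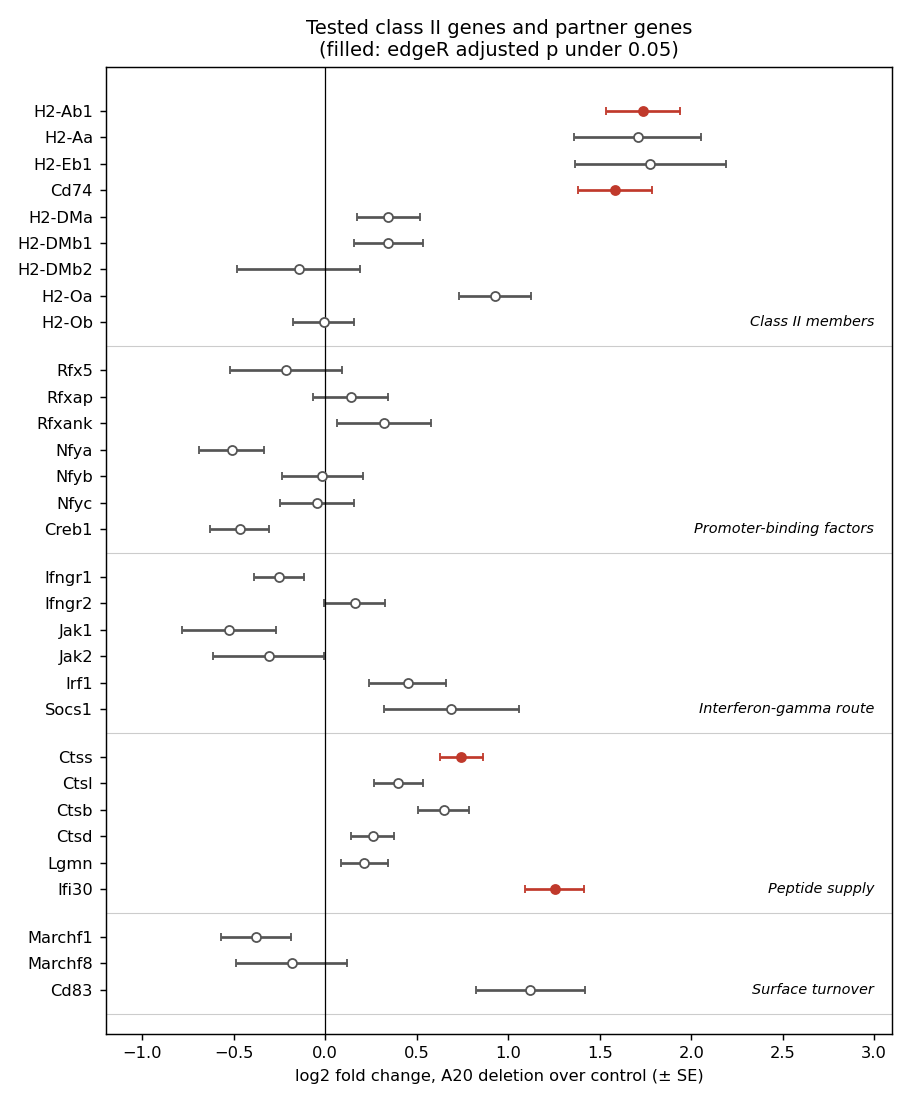
log2 fold change, A20 deletion over control, with its SE for the 9 tested class II genes and 22 tested partner genes; filled red points passed an edgeR adjusted p of 0.05. H2-Ab1, Cd74, Ctss and Ifi30 are filled, and the promoter-binding factors lie between -0.51 and 0.32.

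The factors that bind class II promoters did not pass in either direction. Rfx5, the DNA-binding subunit of RFX, had 22.9, 11.1 and 15.05 CPM in the A20 deletion libraries, against 19.3 and 18.7 CPM in the controls, and the groups overlapped (log2 fold change -0.21, SE 0.31, edgeR adjusted p = 0.695). The NF-Y subunit Nfya had 166, 131 and 127 CPM against 190 and 213 CPM, and Creb1 had 85.3, 73.6 and 73.8 CPM against 100 and 115 CPM. In these 2 of the 7 factors all A20 deletion libraries lay below both controls, as in 18.5% of all genes tested. Neither difference passed (log2 -0.51 and -0.47, edgeR adjusted p = 0.183 and 0.181).

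In the interferon-gamma route the ligand Ifng had 0 counts in all 5 libraries. Irf1, which acts on the Ciita promoter, stood at 124, 98.3 and 84.8 CPM against 82.2 and 67.9 CPM (log2 0.45, SE 0.21, edgeR adjusted p = 0.271). The receptor chains Ifngr1 and Ifngr2, the kinases Jak1 and Jak2 and the feedback inhibitor Socs1 had log2 fold changes between -0.53 and 0.69, and did not pass.

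Of the 6 peptide supply genes 2 rose. Ctss, the protease that cleaves the invariant chain in antigen-presenting cells, had 14155, 13184 and 12608 CPM in the A20 deletion libraries, against 8165 and 7747 CPM in the controls (1.67-fold, log2 0.74, SE 0.12, edgeR adjusted p = 0.0267). Ifi30, a lysosomal thiol reductase that unfolds antigens, had 366, 389 and 401 CPM against 174 and 149 CPM (2.39-fold, log2 1.25, SE 0.16, edgeR adjusted p = 0.0141). After removal of each library's trend with gene length Ctss was at a log2 of 0.32 (adjusted p = 0.409) and Ifi30 at 0.68 (adjusted p = 0.151). In Ctsb, Ctsl, Ctsd and Lgmn, lysosomal proteases, the A20 deletion libraries lay above both controls, as in 21.7% of all genes tested. Their log2 fold changes, between 0.21 and 0.65, did not pass.

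With a single control library neither Ifi30 nor Ctss passed (adjusted p between 0.128 and 0.322), at log2 fold changes of 1.32 and 1.096 for Ifi30 and 0.74 and 0.65 for Ctss, and neither Ifi30 (0.0638) nor Ctss (0.115) passed without A20 deletion replicate 3. Ctss also missed the threshold without A20 deletion replicate 2 (adjusted p = 0.056). Of the genes of surface turnover, Marchf1, a ligase known to ubiquitinate class II for degradation, had a log2 fold change of -0.38 and Marchf8 one of -0.18, and neither passed. Cd83, which opposes Marchf1 in dendritic cells, had 566, 757 and 653 CPM in the A20 deletion libraries, against 401 and 205 CPM in the controls (log2 1.12, SE 0.30, edgeR adjusted p = 0.115).

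Class II genes are also carried by B cells, dendritic cells and macrophages of the brain's borders, so their markers are given beside these results. In bulk RNA fewer cells of a type and less RNA per cell cannot be told apart. Of all genes tested 2.08% were called higher in the A20 deletion libraries and 0.507% lower. All 9 microglial markers were counted in every library, with a sum of 36820 to 41071 CPM in the A20 deletion libraries, against 51001 and 56267 CPM in the controls, and 1 of them, Fcrls, fell. In 8 of the 9, all but Siglech, every A20 deletion library lay below both controls, as in 18.5% of all genes tested. Of 7 B cell markers Cd79a, Ms4a1, Pax5 and Igkc had at most 3 counts in any library. Their sum was 443 to 461 CPM in the A20 deletion libraries against 282 and 350 CPM, nearly all of it from Ighm, Cd79b and Cd22, and Cd22 rose. Of 9 dendritic cell markers Cd209a had 0 counts and Clec9a at most 2; the sums were 30.6 to 47.5 CPM against 31.2 and 33.1 CPM, and of 7 tested 0 passed. The sums overlapped although 5 of the 9 (Ccr7, Clec10a, Zbtb46, Flt3 and Xcr1) were higher in every A20 deletion library than in both controls, and Itgae was lower. Over all genes tested 21.7% were higher and 18.5% lower in this way. Ccr7 had 8, 26 and 30 counts with A20 deleted, against 2 and 0 in the controls, and Clec10a had 40, 95 and 56 counts against 11 and 24. The median log2 fold change of the 7 was 0.86.

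The 8 markers of border-associated macrophages summed to 496 to 542 CPM in the A20 deletion libraries, against 768 and 1316 CPM in the controls, and 1 of them, Stab1, fell and carried most of the sum. Without Stab1 the other 7 summed to 85.9 to 107 CPM in the A20 deletion libraries, against 60.9 and 133 CPM in the controls, and Ms4a7 alone of them did not overlap, being higher in the A20 deletion libraries (log2 0.91, edgeR adjusted p = 0.221). Of 6 monocyte markers 5 were tested and Plac8 and Ms4a4c rose. The shares called over all genes tested were 2.08% higher and 0.507% lower. In 3 of the 5 every A20 deletion library lay above both controls and in 1 below, against 21.7% and 18.5% of all genes tested. The sums were 54.8 to 95.7 CPM against 14.4 and 20.5 CPM, mostly from Plac8 and Ms4a4c in the A20 deletion libraries. Ly6c2 had 7 to 12 counts against 1 and 0. Ccr2 went the other way, with 8.14, 5.18 and 5.49 CPM in the A20 deletion libraries, against 11.5 and 8.20 CPM in the controls. Its log2 fold change of -0.65 did not pass (edgeR adjusted p = 0.271), and Chil3 overlapped between the groups. The 8 T and NK cell markers summed to 4.17 to 7.36 CPM in the A20 deletion libraries, against 0.640 and 1.03 CPM in the controls. Cd4 carried most of these sums, with 3.98, 2.67 and 2.75 CPM in the A20 deletion libraries, against 0.569 and 1.03 CPM in the controls. Cd3e had 4, 5 and 4 counts against 0 in both controls. Markers of neurons, astrocytes, oligodendrocytes and endothelium summed to 124 to 213 CPM against 80.6 and 100 CPM. The part of monocytes, dendritic cells, T cells and other cells in the class II result was not tested.

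**Figure D5:**
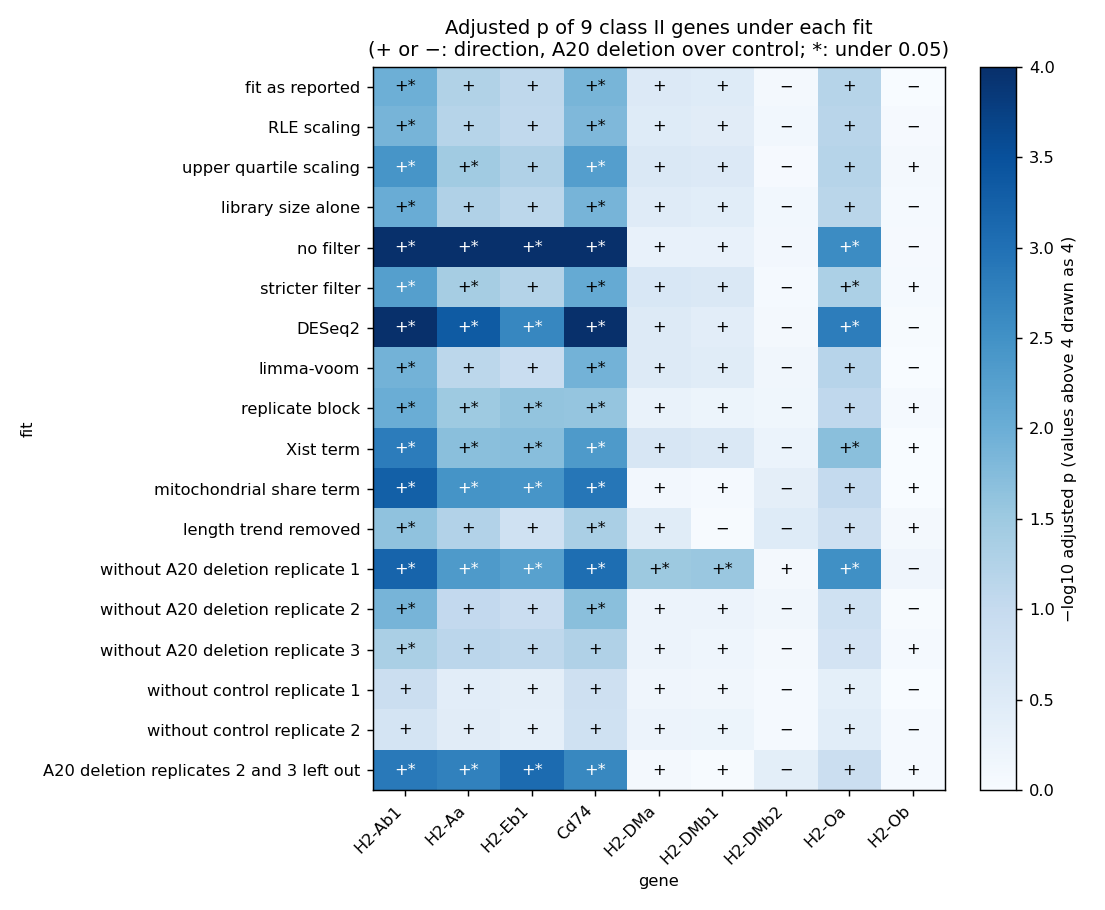
Adjusted p of the 9 tested class II genes (columns) under the fit as reported and 17 alternatives (rows); colour is −log10 of the adjusted p, the sign is the direction of A20 deletion over control and a star marks an adjusted p under 0.05. H2-Ab1 and Cd74 carry a star in most rows but in neither fit without a control replicate, and H2-DMb2 and H2-Ob carry none.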

How the data were processed

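The authors deposited 1 table of raw read counts per Ensembl gene for 5 libraries. Per the submitters' processing notes, GRCm38, STAR 2.4.0j, featureCounts and DESeq2 1.22.1 were used, in roles these do not state; the annotation release, strand setting and handling of multi-mapping reads are not stated there. GENCODE M21 (GRCm38) gave a symbol to 40254 of the 41388 genes, and exonic lengths (the union of all exons of a gene) for TPM. The rest stayed in the tests.

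Counts were fitted in R 4.3.3 with edgeR 4.0.16 (filterByExpr, minimum count 10 and total 15; TMM scaling; glmQLFit and glmQLFTest, two-sided, no covariate; Benjamini-Hochberg over 12240 genes, threshold 0.05). CPM are on TMM-scaled totals. The SE is the log2 fold change over the square root of F and is approximate. The fits were tested on simulated data. Alternatives were other scalings, filters and tests (DESeq2 1.42.0, limma-voom 3.58.1), a replicate block, terms for Xist and mitochondrial share, removal of a length trend, and omission of libraries.

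The members, partner lists and marker lists were chosen with earlier results of these data known. Named genes were the 10 members, partner genes that passed and fixed ones (Rfx5, Irf1, Ctss, Ifi30), Tnfaip3, and the 5 genes nearest to Cd74 at a mean log2 CPM of at least 3 (predicted genes left out). Some genes of the partner and marker lists are not reported here and are left out of the lists' counts and sums. Other partner and marker genes were named after their values were seen. Promoter sequences are RefSeq's. Every pair of libraries differed by more than sampling noise (chi-square per degree of freedom 15.5 to 144).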

Additional observations from a re-analysis of the deposited data

Results flagged for a closer look

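H2-DMb2 went in opposite directions in libraries with and without Xist. A20 deletion replicate 1 minus control replicate 1 was -0.778 log2 CPM, while A20 deletion replicates 2 and 3 minus control replicate 2 were 0.02 and 0.15. The difference was not tested, it rests on 50 counts in A20 deletion replicate 1 and 106 in control replicate 1, and the labels give no sex for these libraries.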

How the results depend on the processing

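The number of class II genes higher was 2 as reported. It was 5 without the filter, with DESeq2 and with the Xist term, 4 with the stricter filter, with the mitochondrial term and with A20 deletion replicates 2 and 3 left out, and from 0 to 7 when 1 library was left out. With the replicate number as a block 4 were higher, adding H2-Aa (adjusted p = 0.0325) and H2-Eb1 (adjusted p = 0.0249), and Ctss missed the threshold (adjusted p = 0.0626). Deviations from the group mean correlated at 0.26 and 0.167 across genes between same-numbered libraries. These 2 values are not independent, since the deviations of 2 controls from their mean mirror each other. Libraries of unlike number were not compared, and replicate 1 was the library with Xist in both groups. With 2 shared numbers and no label tying them the numbers were not taken to pair the samples. The count of class II genes lower was 0 in every fit. Of the partner genes 2 were higher as reported, 4 with DESeq2, 1 with the replicate block, 1 with the length trend removed and from 0 to 5 without 1 library, and from 0 to 6 were lower without 1 library. Over all genes 1048 of 20699 were higher and 653 lower without the filter, and 292 of 9483 were higher and 67 lower with the stricter filter. Of 12240 genes 744 were higher and 366 lower with DESeq2, and 563 and 261 with the Xist term. With limma-voom 166 of 12240 were higher, and with the replicate block 228 were higher and 32 lower. Without 1 A20 deletion library from 85 to 1902 were higher and from 5 to 2021 lower. Without control replicate 2 edgeR called 0 of 13003 genes, with 821 higher and 502 lower at an unadjusted p under 0.05, and 5 class II genes higher at that level.

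H2-Aa passed in 9 and H2-Eb1 in 7 of 17 alternatives (adjusted p from 6.46e-07 to 0.38 and to 0.44), and H2-Oa in 5 (0.00157 to 0.422). Differences near 0 changed sign. H2-Ob was at 0.053 with upper quartile scaling, 0.041 with the stricter filter, 0.075 with the replicate block, 0.0066 with the Xist term, 0.038 with the mitochondrial term, 0.057 with the length trend removed, between -0.086 and 0.085 without 1 library and at 0.098 with A20 deletion replicates 2 and 3 left out. H2-DMb1 was at -0.020 with the length trend removed, and H2-DMb2 between -0.32 and 0.072 without 1 library. Rfx5 was at 0.24 with the mitochondrial term, 0.28 with A20 deletion replicates 2 and 3 left out and between -0.57 and 0.013 without 1 library. Tnfaip3 was at -0.62 without control replicate 2 and at 1.65 without control replicate 1. The cause of these changes was not tested. The fit that leaves out A20 deletion replicates 2 and 3 has 1 deletion library, whose spread is taken from the controls. The promoter pair was in 1 gene as planned, in 4 with each shorter form and in 6 with at least 1 of them. Both shorter forms were chosen after the sequences were read.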
